A study of Caenorhabditis elegans with 9 samples.

Results

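Aminoacyl-tRNA synthetases are the enzymes that load each tRNA with its amino acid, and their mRNA levels were examined in the extruded germ line of Caenorhabditis elegans. Members were all genes whose WormBase symbol is 1 letter followed by ars- and a number and whose mean over the 9 libraries was at least 1 FPKM (fragments scaled by transcript length and by the size of the library). The rule found 34 of the 46245 genes in the table. One of them, cars-2, is annotated as a pseudogene, which leaves 33 protein-coding synthetase genes. All 33 passed the filter on low values, as did 8572 genes in all.

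The study measured polyadenylated RNA in 9 libraries of germ line from worms described as wild type, collected on day 6 of adulthood, with 3 libraries in each of 3 groups. From adulthood on, the iff-1 RNAi 15C worms were fed bacteria with an RNAi construct against iff-1 and kept at 15 °C. The EV 20C worms received empty vector (EV) bacteria at 20 °C, and the EV 15C worms received the same bacteria at 15 °C. The iff-1 gene encodes one of the worm's forms of the translation factor eIF5A and is needed for germ cells to proliferate. RNAi lowers a transcript without removing the gene, it was fed to whole animals, and each library pools many germ cells of all stages, so that fewer cells of a type and less RNA per cell cannot be told apart. Whether the 3 libraries of a group come from separate worm populations is not in the labels, and the spread that the p-values rest on may be technical in part.

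Each synthetase recognises 1 amino acid and the tRNAs that carry it, and joins them at the cost of ATP. Translation takes place both in the cytosol and inside mitochondria, and the mitochondrial enzymes are made from nuclear genes and imported. For some amino acids an animal has a separate gene for each compartment, while for others a single gene serves both or no second gene is known. Synthetases fall into class I and class II by the fold of the catalytic domain. Uncharged tRNA, which accumulates when charging falls behind, activates the kinase GCN2, so charging is also part of how a cell senses amino acids.

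The 33 genes comprised 14 that encode cytosolic enzymes, 13 that encode mitochondrial enzymes and 6 called single genes here. The single genes (cars-1, gars-1, hars-1, kars-1, qars-1 and tars-1) have no partner of the same amino acid among the 33. The tryptophanyl gene wars-1 has none there either, but was counted as cytosolic and not as a single gene. The compartments were assigned from general knowledge of each enzyme, because the reference tables used here hold no protein descriptions. By class, 16 members were class I and 17 class II. The cytosolic valyl enzyme has the symbol glp-4, after a temperature-sensitive mutant that makes almost no germ line, and so falls outside the symbol rule. It is described beside the members and is not counted with them.

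The labelled tissue carried its markers: all 21 germ line marker genes were measured, and their summed level was 5684 to 5822 FPKM in iff-1 RNAi 15C, 6447 to 6629 in EV 20C and 5901 to 6019 in EV 15C. Of 13 sperm markers 5 were listed at 0 in all libraries, and the highest sum in any library was 4.38 FPKM. Intestine markers, by contrast, summed to 231.9 to 481.8 FPKM in iff-1 RNAi 15C, 111.7 to 238.0 in EV 20C and 164.7 to 488.8 in EV 15C. Muscle markers summed to 123.8 to 157.7, 109.1 to 174.8 and 177.3 to 208.3 FPKM in the same order of groups, and somatic gonad markers to 267.8 to 292.8, 264.0 to 292.1 and 306.5 to 327.2. Cuticle and hypodermis markers summed to 20.3 to 35.6, 6.998 to 15.6 and 20.6 to 31.6 FPKM, and neuron markers to 246.3 to 254.3, 274.0 to 281.4 and 233.5 to 239.7. The muscle and somatic gonad sums were lower in both other groups than in EV 15C, in the direction in which most synthetase genes moved. Single somatic gonad genes did not show this in the test described below. Of 6 such markers tested, 1 passed as higher and 0 as lower in iff-1 RNAi 15C, and 0 either way in EV 20C. Their median log2 values were -0.14 and -0.18. Of 11 muscle markers tested, 0 passed as higher in either group, and 3 as lower in iff-1 RNAi 15C and 2 in EV 20C. Against EV 15C, the germ line sum was lower in iff-1 RNAi 15C and higher in EV 20C, and the neuron sum was higher in both. Of 8 neuron markers tested, 3 passed as higher in iff-1 RNAi 15C and 1 in EV 20C, with 0 lower in either. The neuron median log2 values were 0.12 and 0.01. The part of any of these tissues in the results below was not tested. The spacing of the lowest values put the depth at about 34100000 to 39700000 fragments a library, an estimate because whole reads were not recovered.

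The targeted gene was strongly reduced. The iff-1 transcript had 103.9, 58.0 and 37.4 FPKM in iff-1 RNAi 15C, 2665, 2442 and 2479 FPKM in EV 20C, and 2677, 2653 and 2510.0 FPKM in EV 15C. Against EV 15C this was a log2 fold change of -5.40 (SE 0.29, adjusted p = 5.47e-05) in iff-1 RNAi 15C.

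The synthetase genes spanned a wide range of expression, and mitochondrial genes were mostly the lower ones. The lysyl enzyme gene kars-1 was the highest, with a mean of 477.9 FPKM over the 9 libraries, followed by the threonyl enzyme gene tars-1 with 240.2 FPKM and the aspartyl enzyme gene dars-1 with 213.6 FPKM. The median of the 14 cytosolic genes was 127.5 FPKM and that of the 6 single genes 128.2 FPKM. The 13 mitochondrial genes had a median of 37.1 FPKM and ran from 18.3 FPKM for the glutamyl gene ears-2 to 71.1 FPKM for the phenylalanyl gene fars-2. Among cytosolic genes, the tyrosyl gene yars-1 stood lowest, with 35.9 FPKM, below 7 of the 13 mitochondrial genes. FPKM corrects for transcript length, which allows a rough comparison between genes. The exons of ears-2 overlap those of ssna-1 (128 FPKM in EV 15C) on the opposite strand. Those of yars-1 overlap ekl-4 (72.3 FPKM in EV 15C) in the same way. Whether the counting used strand is not given, so these 2 low levels are uncertain to that extent. Many neighbours in this order did not differ beyond their spread: fars-1 ranged from 127.4 to 148.4 FPKM over the libraries, inside the range of 113.2 to 173.2 FPKM of the glutaminyl gene qars-1, which had the same mean. The pseudogene cars-2 averaged 3.66 FPKM.

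**Figure D1:**
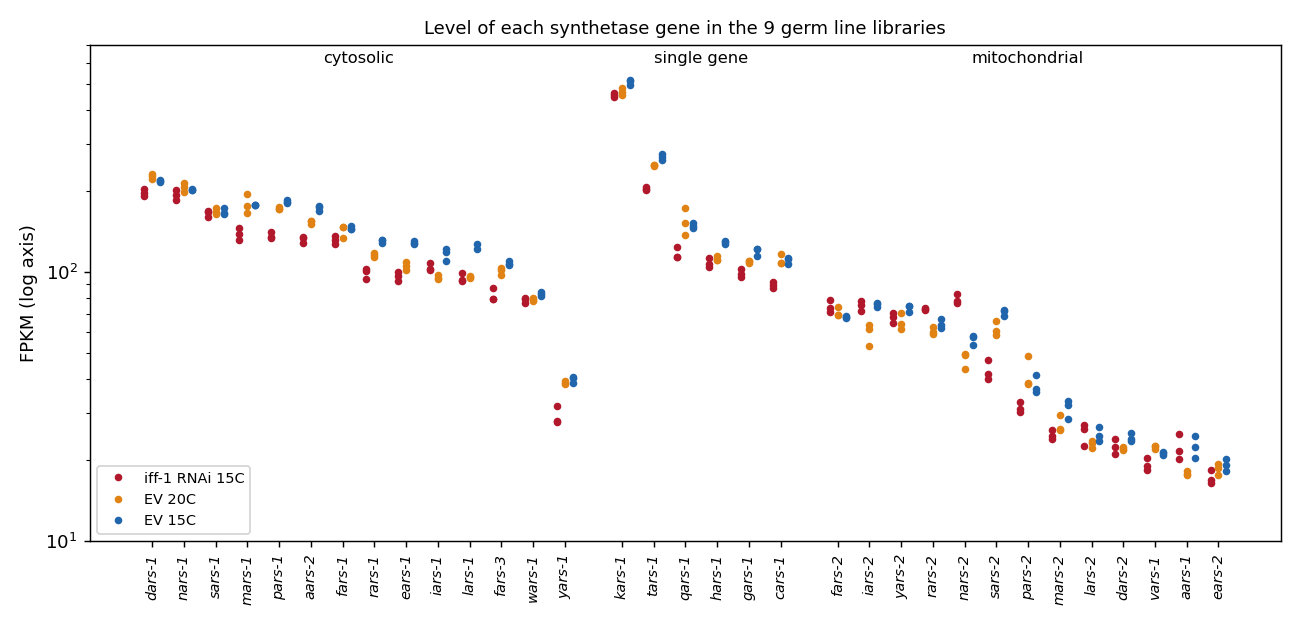
FPKM on a log axis of the 33 synthetase genes, grouped by compartment and ordered by mean level, with 1 point per library (iff-1 RNAi 15C red, EV 20C orange, EV 15C blue; the 1 value of lars-1 listed at 0 is left out). The mitochondrial genes lie below nearly all cytosolic and single genes, and yars-1 is the one cytosolic gene among them.

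In iff-1 RNAi 15C germ lines most cytosolic and single synthetase genes fell, while few mitochondrial genes passed the test. A gene was called when limma's test on log2(FPKM + 1) gave an adjusted p under 0.05, with adjustment by Benjamini and Hochberg over the 8572 genes. Of the 32 members with a fold change, 20 were called, 2 higher and 18 lower, where 31% of all genes tested were called, 16% higher and 15.0% lower. Of the 19 cytosolic and single genes, 16 fell and 0 rose, with a median log2 fold change of -0.30, beside a median of 0.01 over all genes tested. Of the 13 mitochondrial genes, 2 rose and 2 fell (30.8% called), close to the share over all genes, with a median of -0.10 and 9 of the 13 values below 0. Class I and class II genes had nearly the same medians, -0.17 with 9 of 15 called and -0.16 with 11 of 17 called. Of the 20 calls, 18 were made in all 19 alternative settings, and the other two, fars-1 and iars-1, in 12 and 15 of them.

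**Figure D2:**
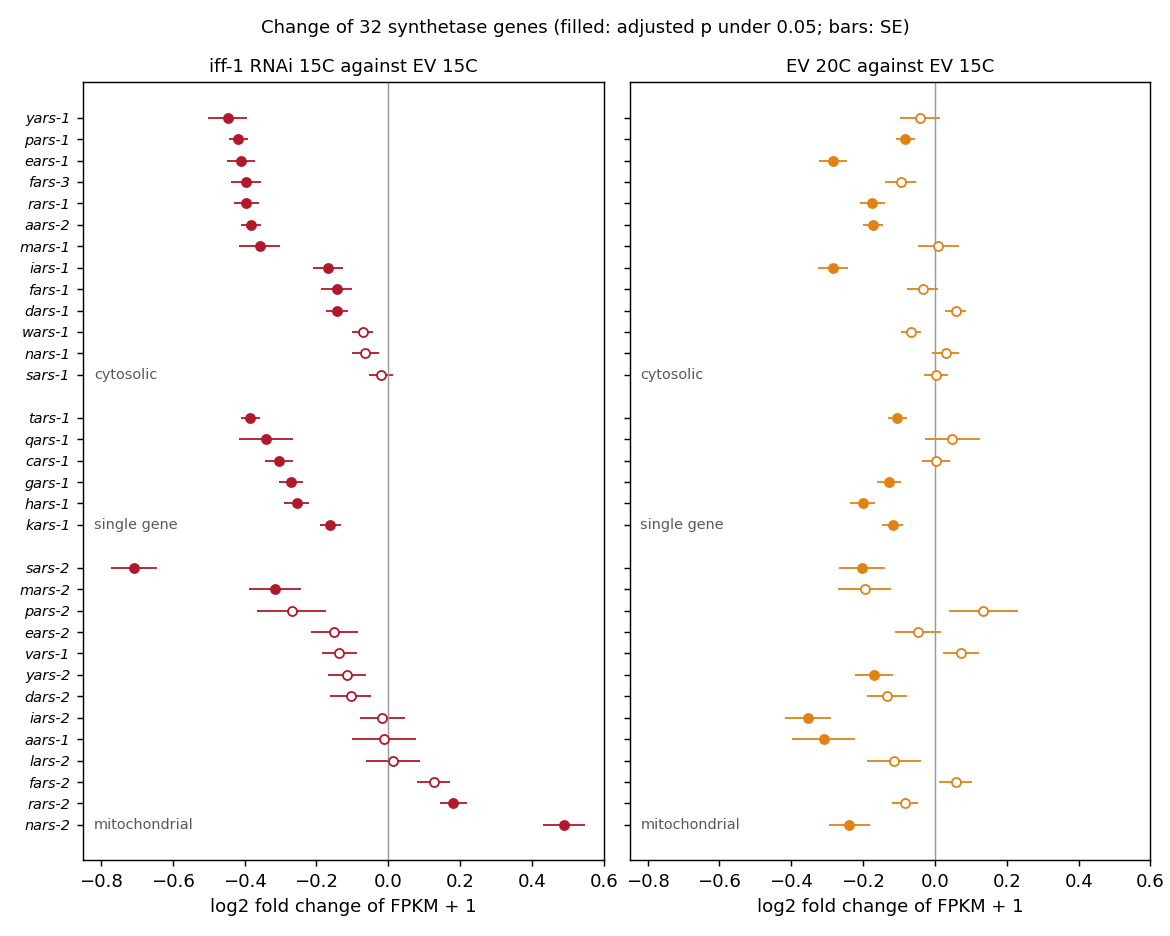
Log2 fold change of FPKM + 1 (x axis) of the 32 synthetase genes with a fold change, for iff-1 RNAi 15C against EV 15C (left) and EV 20C against EV 15C (right), with standard errors; filled points passed an adjusted p of 0.05 in limma. On the left all 19 cytosolic and single genes lie below 0 and 16 are filled; on the right 14 genes are filled, all below 0. Both panels share the EV 15C libraries.

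Among the cytosolic members the steepest falls were in the genes for tyrosine, proline and glutamate. The tyrosyl gene yars-1 had 27.9, 27.7 and 31.7 FPKM in iff-1 RNAi 15C, 39.3, 38.4 and 38.6 FPKM in EV 20C, and 40.4, 40.6 and 38.7 FPKM in EV 15C. All 3 knockdown libraries were below all others, with a log2 fold change of -0.45 (SE 0.05, adjusted p = 0.000913) against EV 15C. The prolyl gene pars-1 had 134, 135 and 140.4 FPKM in iff-1 RNAi 15C, 171, 175 and 171 FPKM in EV 20C, and 185, 182 and 180.3 FPKM in EV 15C. Its groups did not overlap, and in the knockdown it fell by 25.3% of the mean (log2 -0.42, SE 0.03, adjusted p = 8.78e-05). The glutamyl gene ears-1 had 92.5, 96.5 and 100.4 FPKM in iff-1 RNAi 15C, 102, 109 and 105 FPKM in EV 20C, and 131, 128 and 127 FPKM in EV 15C. It was lowest in the knockdown and highest in EV 15C with no overlap, at log2 -0.41 (SE 0.04, adjusted p = 0.000327) against EV 15C.

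The cytosolic valyl gene glp-4 behaved like these. It had 74.1, 74.1 and 77.1 FPKM in iff-1 RNAi 15C, 87.8, 92.0 and 92.4 FPKM in EV 20C, and 104.9, 103.7 and 104.2 FPKM in EV 15C, again with no overlap. Its log2 fold change in the knockdown was -0.47 (SE 0.03, adjusted p = 8.78e-05).

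The arginyl and alanyl cytosolic genes fell by similar amounts. The arginyl gene rars-1 had 94.3, 101 and 102 FPKM in iff-1 RNAi 15C, 116, 113 and 118 FPKM in EV 20C, and 132, 131 and 129 FPKM in EV 15C. The alanyl gene aars-2 had 134, 128 and 135 FPKM in iff-1 RNAi 15C, 151, 154 and 155 FPKM in EV 20C, and 175, 169 and 174 FPKM in EV 15C. In both, each group was separate from the next, and the log2 fold changes in the knockdown were -0.39 for rars-1 (SE 0.03) and -0.38 for aars-2 (SE 0.03). The methionyl gene mars-1 had 132, 139 and 146 FPKM in iff-1 RNAi 15C, 195, 166 and 176 FPKM in EV 20C, and 178, 178 and 177 FPKM in EV 15C. Here the knockdown alone stood apart, at log2 -0.36 (SE 0.06, adjusted p = 0.00269), and the EV 20C libraries spread around the EV 15C ones.

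The cytosolic phenylalanyl enzyme is built from a catalytic alpha subunit and a beta subunit, and its subunit genes did not fall equally. The beta subunit gene fars-3 had 79.3, 79.1 and 86.9 FPKM in iff-1 RNAi 15C, 103.8, 97.5 and 102 FPKM in EV 20C, and 110.0, 107 and 106 FPKM in EV 15C. The alpha subunit gene fars-1 had 132, 127 and 137 FPKM in iff-1 RNAi 15C, 147, 133 and 147 FPKM in EV 20C, and 148, 144 and 145 FPKM in EV 15C. In the knockdown the log2 fold change was -0.40 for fars-3 (SE 0.04, adjusted p = 0.000558) and -0.14 for fars-1 (SE 0.04, adjusted p = 0.0336). The ratio of fars-3 to fars-1 FPKM averaged 0.620 ± 0.0167 in iff-1 RNAi 15C, 0.709 ± 0.0194 in EV 20C and 0.740 ± 0.00456 in EV 15C (SD, n = 3 each). The 3 groups of ratios did not overlap, and the two-sided exact permutation p against EV 15C was 0.1 for each of the other groups, the smallest that 3 against 3 libraries can give.

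The aspartyl and isoleucyl genes fell less. The aspartyl gene dars-1 had 191, 197 and 203 FPKM in iff-1 RNAi 15C, 232, 221 and 227 FPKM in EV 20C, and 219.8, 217 and 215 FPKM in EV 15C, and fell by 9.47% of the mean in the knockdown (log2 -0.14, SE 0.03). The isoleucyl gene iars-1 had 102, 102 and 108 FPKM in iff-1 RNAi 15C, 94.4, 97.6 and 95.2 FPKM in EV 20C, and 122, 118 and 110.2 FPKM in EV 15C. It differed from most cytosolic genes in being lowest in EV 20C.

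The genes for serine, asparagine and tryptophan did not pass the test in the knockdown. The seryl gene sars-1 had 168, 160.5 and 168 FPKM in iff-1 RNAi 15C, 164, 173 and 167 FPKM in EV 20C, and 165, 174 and 166 FPKM in EV 15C. These ranges lay on top of each other, with a log2 value of -0.02 (SE 0.03). The asparaginyl gene nars-1 had 202, 186 and 193 FPKM in iff-1 RNAi 15C, 214, 198 and 208 FPKM in EV 20C, and 202, 203 and 202 FPKM in EV 15C. The tryptophanyl gene wars-1 had 80.3, 79.3 and 76.8 FPKM in iff-1 RNAi 15C, 79.9, 78.2 and 79.0 FPKM in EV 20C, and 81.7, 84.4 and 82.5 FPKM in EV 15C. The wars-1 values of both other groups lay below those of EV 15C without overlap, by less than 5 FPKM between the means, and neither difference passed the test (adjusted p = 0.0885 and 0.109).

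The leucyl gene lars-1 was listed at 0 in 1 library. It had 93, 92.8 and 99.4 FPKM in iff-1 RNAi 15C, 96.3, 94.8 and 96.2 FPKM in EV 20C, and 127, 0 and 122 FPKM in EV 15C. A 0 beside values over 100 in the same group is taken as a failed estimate and not a level, and no fold change is given with it. With that value set as missing, lars-1 had a log2 fold change of -0.39 (SE 0.04, adjusted p = 0.000488) in iff-1 RNAi 15C and of -0.38 (SE 0.04, adjusted p = 0.000835) in EV 20C, each against the remaining EV 15C libraries.

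All 6 single genes fell in the knockdown, by log2 values between -0.38 and -0.16. The cytosolic gene wars-1, also without a partner among the members, did not pass the test there. The threonyl gene tars-1 had 204, 202 and 208 FPKM in iff-1 RNAi 15C, 247, 249 and 249.6 FPKM in EV 20C, and 275, 268 and 259.7 FPKM in EV 15C, with no overlap between any groups (knockdown log2 -0.38, SE 0.03, adjusted p = 0.000102). The glutaminyl gene qars-1 had 113, 114 and 124 FPKM in iff-1 RNAi 15C, 173, 137 and 152 FPKM in EV 20C, and 146, 148 and 152 FPKM in EV 15C. The cysteinyl gene cars-1 had 89.7, 87.3 and 91.4 FPKM in iff-1 RNAi 15C, 117, 108 and 108 FPKM in EV 20C, and 112, 113 and 107 FPKM in EV 15C. For qars-1 and cars-1 the knockdown was low and the EV 20C and EV 15C ranges overlapped, with knockdown log2 values of -0.34 (SE 0.08) and -0.30 (SE 0.04).

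The other 3 single genes, for glycine, histidine and lysine, were lower in both EV 20C and the knockdown than in EV 15C. The glycyl gene gars-1, whose product serves both compartments in animals, had 95.9, 98.1 and 102 FPKM in iff-1 RNAi 15C, 109.8, 109 and 108 FPKM in EV 20C, and 122, 122 and 115 FPKM in EV 15C. The histidyl gene hars-1 had 107, 103.98 and 113 FPKM in iff-1 RNAi 15C, 115, 111 and 111 FPKM in EV 20C, and 129.6, 131 and 127 FPKM in EV 15C. The lysyl gene kars-1, likewise shared between compartments in animals, had 449, 453 and 464 FPKM in iff-1 RNAi 15C, 484, 456 and 468 FPKM in EV 20C, and 516, 515 and 497 FPKM in EV 15C. The knockdown log2 values were -0.27 (SE 0.03), -0.25 (SE 0.03) and -0.16 (SE 0.03) in that order, and kars-1, the most abundant member, moved least of the single genes.

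Of the mitochondrial genes, the seryl gene sars-2 fell most of all 32 members. It had 40.2, 41.8 and 47.2 FPKM in iff-1 RNAi 15C, 65.6, 58.2 and 60.6 FPKM in EV 20C, and 72.5, 71.6 and 68.3 FPKM in EV 15C. Every knockdown library was below every other library, and the mean fell by 39.2% against EV 15C (log2 -0.71, SE 0.07, adjusted p = 0.000327). Its cytosolic partner sars-1 was the member with one of the flattest profiles. The methionyl gene mars-2 had 23.8, 24.6 and 25.9 FPKM in iff-1 RNAi 15C, 29.3, 25.8 and 26.0 FPKM in EV 20C, and 33.2, 31.95 and 28.3 FPKM in EV 15C, and was the other mitochondrial gene that fell in the knockdown (log2 -0.32, SE 0.07, adjusted p = 0.0124).

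The asparaginyl gene nars-2 and the arginyl gene rars-2 were the members that rose. The nars-2 values were 83.0, 78.1 and 76.7 FPKM in iff-1 RNAi 15C, 49.6, 43.7 and 49.3 FPKM in EV 20C, and 57.3, 57.8 and 53.5 FPKM in EV 15C. The 3 groups were fully separated, highest in the knockdown and lowest in EV 20C, with a knockdown log2 value of 0.49 (SE 0.06, adjusted p = 0.000757). The rars-2 values were 72.7, 73.3 and 72.1 FPKM in iff-1 RNAi 15C, 58.8, 62.5 and 59.8 FPKM in EV 20C, and 62.1, 66.8 and 63.3 FPKM in EV 15C. Here too the knockdown was above both other groups (log2 0.18 against EV 15C, SE 0.04, adjusted p = 0.00743).

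**Figure D3:**
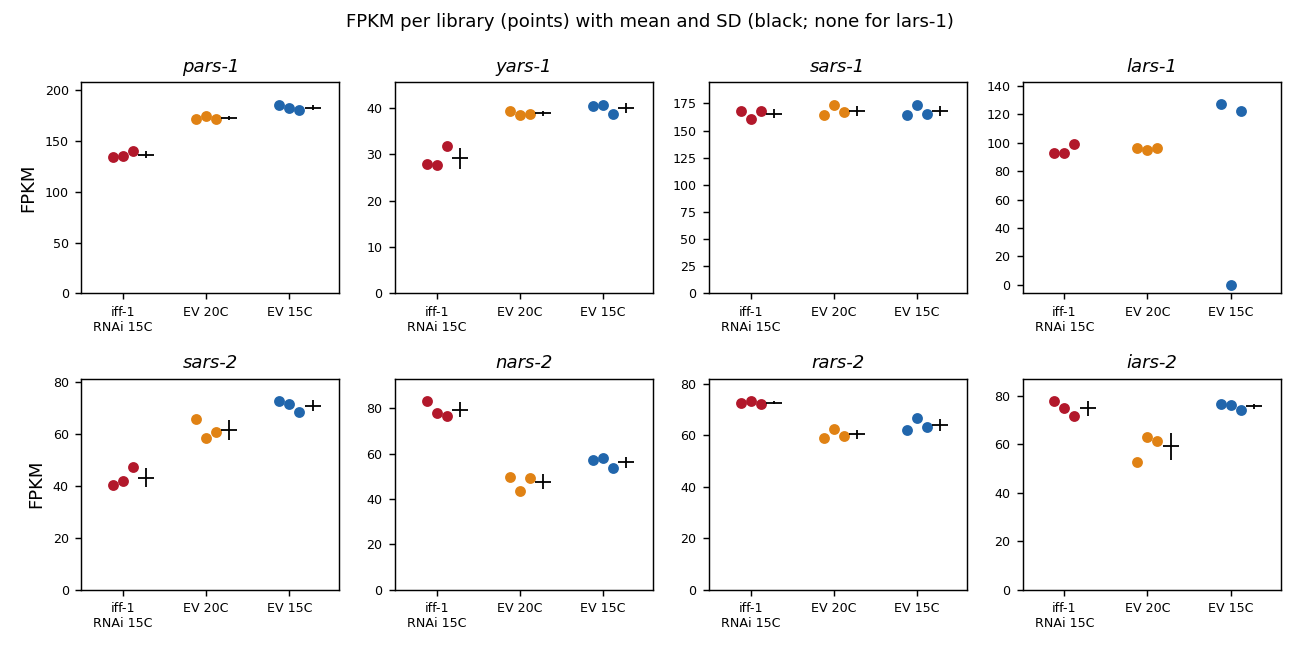
FPKM per library (points; y axis from about 0) of 8 synthetase genes in iff-1 RNAi 15C, EV 20C and EV 15C, with the mean and SD in black where no value is 0. The top row holds cytosolic genes, with pars-1 and yars-1 low in the knockdown, sars-1 level and lars-1 with 1 value at 0; the bottom row holds mitochondrial genes, with sars-2 low and nars-2 and rars-2 high in the knockdown and iars-2 low in EV 20C.

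The other 9 mitochondrial genes did not pass the test in the knockdown, with log2 values from -0.27 for the prolyl gene pars-2 to 0.13 for fars-2. The pars-2 values were 30.9, 30.1 and 32.9 FPKM in iff-1 RNAi 15C, 48.8, 38.4 and 38.8 FPKM in EV 20C, and 36.8, 35.7 and 41.5 FPKM in EV 15C. Its knockdown libraries lay below all EV 15C ones, and the wide spread left the adjusted p at 0.0627. The fars-2 values were 78.9, 71.1 and 73.2 FPKM in iff-1 RNAi 15C, 74.4, 69.3 and 69.0 FPKM in EV 20C, and 68.8, 67.2 and 68.1 FPKM in EV 15C, the one uncalled mitochondrial gene with every knockdown library above EV 15C. The valyl gene vars-1 ranged from 18.4 to 20.3 FPKM in iff-1 RNAi 15C, 21.9 to 22.6 in EV 20C and 20.8 to 21.5 in EV 15C. The glutamyl gene ears-2 lay between 16.4 and 20.2 FPKM over all 9 libraries, the aspartyl gene dars-2 between 21.04 and 25.2 FPKM and the leucyl gene lars-2 between 22.1 and 27.1 FPKM, and none of these 3 was called in any of the comparisons.

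At 20 °C all synthetase genes that passed the test were lower. In EV 20C against EV 15C, 14 of the 32 members were called, 0 higher and 14 lower, where 28% of all genes tested were called, 19.3% higher and 8.69% lower. The 14 comprised 5 of the 13 cytosolic, 4 of the 6 single and 5 of the 13 mitochondrial genes. The median log2 fold changes were -0.07, -0.11 and -0.13 for those 3 groups of genes, beside 0.03 over all genes tested. Of the 32 members, 23 had log2 values below 0. For 3 uncalled members (dars-1, fars-2 and vars-1) every EV 20C library was above every EV 15C library. For 18 members every EV 20C library was below. Over the 8572 genes tested these numbers were 2508 and 1386. The changes were small, and the split over all genes depended on the scaling: 1656 genes were called higher and 745 lower, with 1228 higher and 1041 lower under median ratio scaling, 1261 higher and 1021 lower under quantile normalization, and 1807 higher and 512 lower if the 10 highest genes were kept out of the scaling. Over the scalings 11 to 19 members were called, all lower. Leaving out EV 15C replicate 1 or replicate 2 left 6 members called, leaving out EV 20C replicate 3 left 7, and leaving out EV 20C replicate 2 left 8.

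Of the 14, 6 were called in all 19 alternative settings: aars-2, ears-1, hars-1, iars-1, iars-2 and rars-1. The mitochondrial isoleucyl gene iars-2 had 77.8, 75.1 and 71.8 FPKM in iff-1 RNAi 15C, 52.9, 63.3 and 61.6 FPKM in EV 20C, and 76.5, 76.3 and 74.4 FPKM in EV 15C. It was low in EV 20C alone and fell by 21.7% of the mean there (log2 -0.35, SE 0.06, adjusted p = 0.00543), while the knockdown and EV 15C ranges overlapped. Its cytosolic partner iars-1, with the values given above, had a log2 fold change of -0.28 (SE 0.04, adjusted p = 0.00241) in EV 20C, and ears-1 had -0.28 (SE 0.04, adjusted p = 0.00177). The log2 values of hars-1, rars-1 and aars-2 were -0.20 (SE 0.03), -0.17 (SE 0.03) and -0.17 (SE 0.03), and that of glp-4, beside the members, was -0.20 (SE 0.03).

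The remaining 8 calls were less stable. The mitochondrial alanyl gene aars-1 had 20.1, 21.6 and 24.98 FPKM in iff-1 RNAi 15C, 18.3, 17.6 and 17.7 FPKM in EV 20C, and 24.5, 22.4 and 20.3 FPKM in EV 15C, and its log2 value of -0.31 (SE 0.09) in EV 20C was called in 12 of the 19 settings. The mitochondrial tyrosyl gene yars-2 had 64.8, 68.1 and 70.6 FPKM in iff-1 RNAi 15C, 70.3, 61.5 and 64.2 FPKM in EV 20C, and 74.6, 74.5 and 71.3 FPKM in EV 15C, and its log2 value of -0.17 (SE 0.05) in EV 20C was called in 9 of them. For pars-1 (-0.08), sars-2 (-0.20), gars-1 (-0.13), kars-1 (-0.12), tars-1 (-0.11) and nars-2 (-0.24) the calls in EV 20C were made in 8, 10, 13, 15, 15 and 17 of the settings, in that order.

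Both comparisons use the same EV 15C libraries and so are not independent. The nars-2 gene had opposite directions in them, at log2 0.49 (SE 0.06) in iff-1 RNAi 15C and -0.24 (SE 0.06) in EV 20C.

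The knockdown set directly against EV 20C changes both the RNAi and the temperature. In that comparison 20 of the 32 members were called, 5 higher and 15 lower, where 48.9% of all genes tested were called, 20.5% higher and 28.4% lower. The 5 were nars-2 (log2 0.73, SE 0.06), iars-2 (0.34, SE 0.06), aars-1 (0.30, SE 0.09), rars-2 (0.26, SE 0.04) and iars-1 (0.12, SE 0.04), 4 of them mitochondrial. Of these, iars-1 was called in 8 and aars-1 in 16 of the 19 alternative settings, and 3 genes were left higher on leaving out any 1 of EV 20C replicate 2, EV 20C replicate 3 and iff-1 RNAi 15C replicate 3. The 19 cytosolic and single genes had a median of -0.20 and the 13 mitochondrial genes a median of 0.06.

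Summed over genes, with lars-1 left out, the cytosolic genes were lowest in the knockdown and the mitochondrial genes in EV 20C. The 13 cytosolic genes summed to 1585 ± 38.0 FPKM in iff-1 RNAi 15C, 1784 ± 27.7 in EV 20C and 1874 ± 18.9 in EV 15C (SD, n = 3 each). The 6 single genes summed to 1073 ± 24.8, 1204 ± 37.5 and 1284 ± 23.7 FPKM in the same groups. The 13 mitochondrial genes summed to 574.6 ± 9.19 FPKM in iff-1 RNAi 15C, 537.5 ± 14.9 in EV 20C and 589.4 ± 11.7 in EV 15C. Cytosolic and single genes together were therefore 4.60 to 4.67 times the mitochondrial sum in iff-1 RNAi 15C, 5.51 to 5.61 times in EV 20C and 5.34 to 5.40 times in EV 15C, with no overlap between groups. The mitochondrial sum holds lars-2 and vars-1, while their cytosolic partners lars-1 and glp-4 are in none of the sums. The ratio is thus not a balance of matched genes. Since the genes were chosen with these values known, no test is given for the sums.

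**Figure D4:**
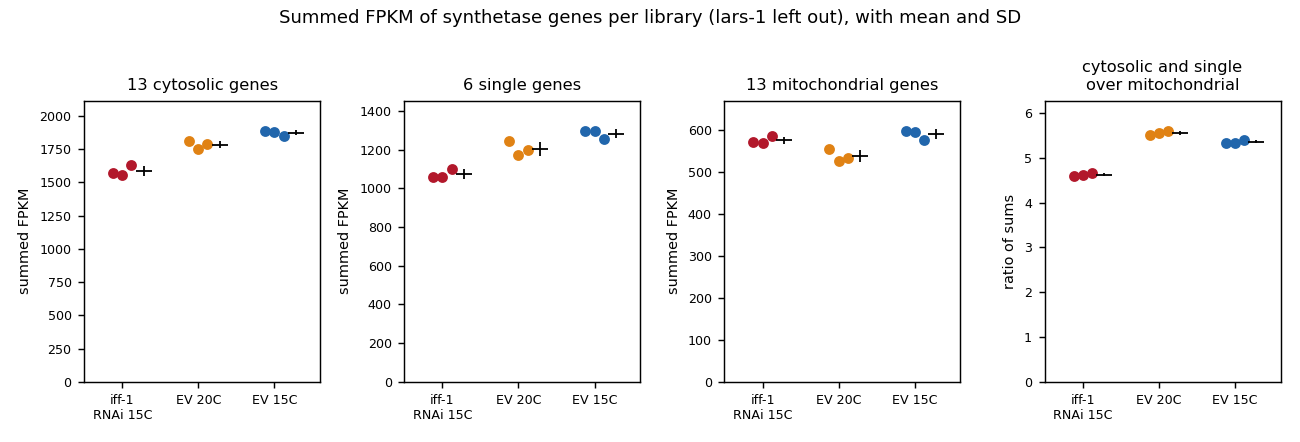
Summed FPKM per library of 13 cytosolic, 6 single and 13 mitochondrial synthetase genes (y axes from 0, lars-1 left out) and the ratio of the first 2 sums together to the last, with the mean and SD in black. The cytosolic and single sums are lowest in iff-1 RNAi 15C, the mitochondrial sum is lowest in EV 20C, and the ratio lies at 4.60 to 4.67 in the knockdown, below the other groups.

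For 10 amino acids the mitochondrial and the cytosolic gene were compared within a library. Phenylalanine was left out, as were leucine, for the 0 in lars-1, and valine, whose cytosolic gene glp-4 is not a member. The mitochondrial gene was the lower one in EV 15C for 9 of them. Tyrosine was the exception, with a ratio of yars-2 to yars-1 of 2.34 ± 0.119 in iff-1 RNAi 15C, 1.68 ± 0.0939 in EV 20C and 1.84 ± 0.00473 in EV 15C (SD, n = 3 each). Every iff-1 RNAi 15C ratio was above every EV 15C ratio for 5 of the 10 amino acids (alanine, arginine, asparagine, glutamate and tyrosine) and below for 1 (serine). For aspartate, isoleucine, methionine and proline the ratios of those groups overlapped. In EV 20C the ratios were all above EV 15C for 1 amino acid, all below for 5 and overlapping for 4. Such separation was common over the whole table. Of the 8572 genes tested, 2239 lay above EV 15C without overlap in iff-1 RNAi 15C and 2024 below. In EV 20C these numbers were 2508 and 1386. The share for ratios of other gene pairs was not computed. Among the rises in the knockdown were asparagine, where nars-2 over nars-1 was 0.409 ± 0.0117 in iff-1 RNAi 15C, 0.230 ± 0.00873 in EV 20C and 0.277 ± 0.0114 in EV 15C, and arginine, where rars-2 over rars-1 was 0.734 ± 0.0342, 0.522 ± 0.0253 and 0.491 ± 0.0183 in those groups. Serine ran the other way: sars-2 over sars-1 was 0.260 ± 0.0207 in iff-1 RNAi 15C, 0.366 ± 0.0320 in EV 20C and 0.422 ± 0.0159 in EV 15C.

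Genes that act around the synthetases gave a mixed picture. Among genes for tRNA processing, modification and export, 1 of 31 measured rose in iff-1 RNAi 15C and 11 fell, with a median log2 fold change of -0.15, so that 38.7% were called beside 31% of all genes tested. In EV 20C 3 rose and 4 fell (22.6%, beside 28% of all genes). The 11 included all 4 genes of the Elongator complex in the list, which modifies the wobble base of tRNAs: elpc-1 averaged 26.8 ± 1.79 FPKM in iff-1 RNAi 15C and 37.8 ± 1.01 in EV 15C (log2 -0.48, SE 0.06, adjusted p = 0.000726), and elpc-2, elpc-3 and elpc-4 had log2 values of -0.42, -0.22 and -0.24. Of 16 genes for amino acid sensing, 0 rose and 5 fell in the knockdown, a share of 31.2% that does not stand out from all genes tested. The 5 were raga-1, rsks-1, pek-1, gcn-1 (26.4 ± 2.20 FPKM in iff-1 RNAi 15C and 39.5 ± 1.27 in EV 15C, log2 -0.57, SE 0.06, adjusted p = 0.000619) and gcn-2, the kinase that binds uncharged tRNA (log2 -0.20, SE 0.06, adjusted p = 0.0314). In EV 20C 2 of the 16 rose and 3 fell, again 31.2%, with gcn-1 at log2 -0.33 (SE 0.06, adjusted p = 0.00678).

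The downstream machinery was counted in the same way. Of 10 genes in the list of cytosolic elongation factors, 4 rose in iff-1 RNAi 15C (eef-1A.2, eef-1B.1, eef-1B.2 and eef-1G) and 2 fell. That was 60.0% called, beside 31% of all genes tested. The pair that fell were iff-1, the RNAi target itself, and iff-2, the other eIF5A gene (log2 -0.79, SE 0.09, adjusted p = 0.000837). Of 79 cytosolic ribosomal protein genes 19 rose and 4 fell (29.1% called, near the share over all genes, median log2 0.15). Of 69 mitochondrial ribosomal protein genes, 3 rose and 43 fell (66.7% called, median -0.27). Of 9 measured genes in a list named for mitochondrial translation factors 0 rose and 3 fell (33.3% called, near the 31% of all genes tested). The 3 were all elongation factors: tufm-1 (log2 -0.23), tsfm-1 (-0.23) and gfm-1 (-0.19). That list also holds hmg-5, rpom-1, mtss-1 and mtx-1, which act in mitochondrial DNA upkeep, transcription and protein import and not in translation. In EV 20C the cytosolic ribosomal protein genes numbered 0 higher and 10 lower (12.7% called, median -0.15). The mitochondrial ones numbered 6 higher and 4 lower (14.5% called, median 0.04). Both shares were below the 28% of all genes tested.

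The genes whose profile over the 9 libraries was most like the mean of the cytosolic and single genes were fkb-6, gpdh-2, F28B3.10, adsl-1 and nduf-7, with Pearson r from 0.982 to 0.989, picked as the highest of all genes tested. The same measure for the mitochondrial genes named ola-1, snr-2, grwd-1, F44E2.8 and rpom-1, with r from 0.950 to 0.980. The members themselves had a median r of 0.892 to their own mean for the cytosolic and single genes and 0.468 for the mitochondrial genes. The libraries share their group structure, so these values describe likeness alone.

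In the WBcel235 annotation, which may not be the build behind the deposited values, the members lay on all 5 autosomes, with 10 on chromosome I, 5 on II, 6 on III, 8 on IV and 4 on V. A coding gene on the same strand lay within 500 nt of 19 of the 33 (57.6%), as it did for 41.7% of 8062 coding genes tested. In worms, such closely spaced genes are often transcribed together as operons. A pair of members were neighbours: mars-2 (chromosome I, 14486877 to 14496560, minus strand) lies 109 nt upstream of yars-1 (14476759 to 14486767, minus strand). Both fell in the knockdown, as did 18 of the 32 members in all. Neither was called in EV 20C against EV 15C (log2 -0.20 for mars-2 and -0.04 for yars-1). Whether they are transcribed together was not tested. The exons of 13 members overlap those of another gene, on the opposite strand for 12 of them, and whether the counting used strand is not given in the sources used here, so their values are uncertain to that extent. The most abundant partner was clec-87, over iars-2, with means of 2000, 2700 and 2340 FPKM in iff-1 RNAi 15C, EV 20C and EV 15C.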

How the data were processed

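RNA was extracted from extruded germ lines and sequenced as paired-end poly(A) libraries prepared with a stranded kit, per the labels' protocols. The authors deposited 1 table of FPKM per gene and library. The submitters' processing notes list CASAVA and Cufflinks, with no version or role. Genome build and strand setting: not given in the sources used here. Genes with a mean of at least 1 FPKM were kept, 1 was added, and log2 values of all 9 libraries were fitted together with limma 3.58.1 in R 4.3.3 (3 groups, 6 residual degrees of freedom, variance trend), two-sided, with Benjamini-Hochberg adjustment and calls at 0.05. The pipeline was tested on simulated data. No pairing of libraries by replicate number was seen. The correlation of deviations from the group means was -0.19 to 0.0817 for same-numbered libraries and -0.14 to 0.21 for differently numbered ones. With 3 libraries a group this cannot exclude a shared batch. Symbols came from the gene name table, and those of mars-2 and cars-2 from RefSeq. All members were named; those called against EV 15C, and those with an exact 0, got values per library. Members, gene lists and tests were chosen with earlier results of these data known. FPKM are relative to each library's total, so a fall is a fall in share.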

Additional observations from a re-analysis of the deposited data

How the results depend on the processing

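In iff-1 RNAi 15C against EV 15C, 19 to 22 members were called under the settings that kept every library, and 18 to 22 when 1 library was left out. In EV 20C against EV 15C the count was 14, with 9 under the replicate block and 6 to 15 when 1 library was left out, while the calls over all genes ran from 1514 to 2518 then. The replicate block gave 21 members in each comparison of iff-1 RNAi 15C. As it is not known whether the numbers pair samples, this says nothing on strength. The median log2 value in EV 20C against EV 15C was -0.121 for cytosolic and single genes and -0.171 for mitochondrial genes with median ratio scaling, -0.115 and -0.193 with quantile normalization, and -0.052 for cytosolic and single genes when scaled without the 10 highest genes. In iff-1 RNAi 15C against EV 20C the cytosolic and single median was -0.177, -0.156 and -0.25 under those 3 settings, and the mitochondrial median (0.055) was 0.112 with quantile normalization, 0.008 without the 10 highest genes and 0.027 to 0.103 with 1 library left out. The mitochondrial median in iff-1 RNAi 15C against EV 15C (-0.105) was -0.068 with quantile normalization and -0.059 without iff-1 RNAi 15C replicate 1. No called member changed sign in any setting; 40 values of uncalled genes near 0 did. In iff-1 RNAi 15C against EV 15C these were aars-1 (0.024, quantile; -0.095 to 0.054 with 1 library left out), lars-2 (-0.001, median ratio; -0.004, without the 10 highest; -0.04 to 0.089), iars-2 (-0.044 to 0.014), sars-1 (-0.035 to 0.003) and cars-2 (-0.026 to 0.175). In EV 20C against EV 15C, with median ratio scaling and then quantile normalization, they were cars-1 (-0.036 and -0.059; -0.033 to 0.022 with 1 library left out), mars-1 (-0.029 and -0.036; -0.054 to 0.063), nars-1 (-0.009 and -0.025) and sars-1 (-0.035 and -0.045; -0.018 to 0.028), with quantile normalization alone qars-1 (-0.004; -0.038 to 0.129) and iff-1 (0.056), and with 1 library left out fars-1 (-0.059 to 0.012). In iff-1 RNAi 15C against EV 20C they were dars-2 (-0.017, without the 10 highest; -0.017 to 0.075 with 1 library left out), wars-1 (0.019, median ratio; 0.025, quantile; -0.018 to 0.014) and, with quantile normalization, ears-2 (0.016), kars-1 (0.01) and sars-1 (0.02). The cause was not tested. From the estimated depth, counting error was put at 0.527% of the level for kars-1 to 3.06% for ears-2 among the 33 genes.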
